A study of Mus musculus with 15 samples.

Results

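The Ms4a genes encode a family of small proteins that cross the membrane 4 times, and 8 of them were followed here in leukemic mouse spleen cells: Ms4a1, Ms4a4b, Ms4a6b, Ms4a4c, Ms4a6c, Ms4a6d, Ms4a7 and Ms4a3. They were chosen by symbol, among 16470 genes listed for vehicle-treated cells and 16428 listed for ibrutinib-treated cells, with their levels already known, so the levels are given as a description. All 8 were found in both tables, which list 11 Ms4a genes between them. Ms4a2 and Ms4a4d are also in both tables, and Ms4a8a is in the DMSO table alone.

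MS4A proteins have a pair of loops outside the cell and both ends inside it, and most are made in 1 or a few kinds of blood cell. Ms4a1 encodes CD20, the surface antigen of mature B cells against which rituximab is directed. Ms4a4b and Ms4a6b are known from T cells, where Ms4a4b was described as a partner of the costimulatory receptor GITR. Ms4a4c, Ms4a6c, Ms4a6d and Ms4a7 are known mainly from monocytes and macrophages, and Ms4a3 from granulocyte and monocyte progenitors.

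Eμ-TCL1 mice carry the human TCL1 oncogene under an enhancer and promoter active in B cells and develop a disease like chronic lymphocytic leukemia. Eμ-TCL1;p53R172H/+ mice carry the same transgene and 1 mutant Trp53 allele. All mice were on a C57Bl/6 background and had leukemic spleens, and their ages are not given for these samples. Spleens were disrupted mechanically and the cells were cultured for 24 h with DMSO or with 5 μM ibrutinib, an inhibitor of the B-cell receptor kinase BTK. RNA was then sequenced from 3 Eμ-TCL1 and 5 Eμ-TCL1;p53R172H/+ cultures in DMSO, and from 3 and 4 in ibrutinib. No sorting step is described, so each library is the RNA of a bulk splenocyte culture, in which fewer cells of a type and less RNA per cell cannot be told apart.

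Values are normalized CPM (read counts scaled to a common library size), scaled separately in the DMSO and ibrutinib tables, so a level in DMSO and a level in ibrutinib stand side by side below without a test. Column sums were between 756625 and 1359650. They reflect the scaling, and the sequencing depth is unknown. The labels call the cells B cells, but 5 of the 15 libraries stood apart in marker genes of other cell types. Eμ-TCL1;p53R172H/+ replicates 1 and 2 in DMSO and replicate 1 in ibrutinib had the B-cell receptor gene Cd79a at 12.8, 13.2 and 4.6 and the T-cell gene Cd3g at 284.4, 397.6 and 169.2. Eμ-TCL1 replicate 2 in DMSO and replicate 1 in ibrutinib had Cd79a at 37.9 and 42.7 and the granulocyte precursor gene Mpo at 607.0 and 816.9. The 8 erythroid markers found also summed to 17901.7 and 15487.5 in these libraries, against at most 264.1 elsewhere. In the remaining 10 libraries Cd79a was between 81.1 and 421.5, Cd3g between 8.4 and 70.7 and Mpo at most 8.1. Of these 10, Eμ-TCL1;p53R172H/+ ibrutinib replicate 3 had the lowest Cd79a and the highest Cd3g and Mpo. Its granulocyte markers summed to 1296.9, against at most 242.0 in the others, and its T-cell markers to 2133.0, against at most 1422.9. It was kept wherever libraries that stood apart were left out below, so those comparisons still hold a mixed library. Xist, an RNA of female cells, was at 868.7 or more in all 6 Eμ-TCL1 libraries but at 1.2 or less in 6 of the 9 Eμ-TCL1;p53R172H/+ libraries, so sex was not balanced between genotypes.

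The 8 genes lie in 391.2 kb of chromosome 19 (GRCm38, chr19:11249675-11640851), where GENCODE annotates 23 genes and the tables list 11 of them. From low to high coordinates the order is Ms4a1, Ms4a7, Ms4a4c, Ms4a4b, Ms4a6c, Ms4a6b, Ms4a6d and Ms4a3. The T-cell genes therefore alternate with genes known from monocytes: Ms4a4b is followed by Ms4a6c, and then by Ms4a6b. Gm8369, named here because it is the only listed gene of the interval outside the Ms4a symbols, was at 37.6 at most. Gene starts and ends are chr19:11249675-11266241 on the minus strand for Ms4a1, chr19:11443553-11467055 on the plus strand for Ms4a4b, chr19:11516512-11531256 on the plus strand for Ms4a6b and chr19:11469366-11482192 on the plus strand for Ms4a6c.

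Promoter sequences were matched by symbol in a RefSeq table on GRCm38.p6 for 6 of the 8 members, with 7 promoters between them, since Ms4a7 has 2. Ms4a1 and Ms4a6d had no entry. The 4 printed here run from 250 bases before to 50 bases after a start site. They are shown because the members of each pair, Ms4a4b with Ms4a4c and Ms4a6b with Ms4a6c, are neighbours of similar sequence whose levels across the libraries are compared below. Capitals mark a run of bases that is identical in both promoters of a pair. It has 20 bases in the first pair, where it is 1 of 2 shared runs of that length, and 48 bases in the second, where it is the longest.
Ms4a4b promoter, chr19:11443308-11443607, plus strand: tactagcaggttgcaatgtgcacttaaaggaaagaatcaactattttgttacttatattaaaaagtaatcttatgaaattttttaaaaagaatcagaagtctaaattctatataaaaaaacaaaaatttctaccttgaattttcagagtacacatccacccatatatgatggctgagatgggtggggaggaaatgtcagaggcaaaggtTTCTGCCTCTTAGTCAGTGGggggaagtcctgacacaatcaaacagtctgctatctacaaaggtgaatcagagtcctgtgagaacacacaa
Ms4a4c promoter, chr19:11407411-11407710, plus strand: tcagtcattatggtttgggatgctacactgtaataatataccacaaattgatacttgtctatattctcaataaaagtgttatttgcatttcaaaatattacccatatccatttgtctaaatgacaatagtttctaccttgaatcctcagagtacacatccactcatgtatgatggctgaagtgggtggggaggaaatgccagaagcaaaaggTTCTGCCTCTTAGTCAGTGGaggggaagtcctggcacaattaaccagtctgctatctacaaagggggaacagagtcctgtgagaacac
Ms4a6b promoter, chr19:11518309-11518608, plus strand: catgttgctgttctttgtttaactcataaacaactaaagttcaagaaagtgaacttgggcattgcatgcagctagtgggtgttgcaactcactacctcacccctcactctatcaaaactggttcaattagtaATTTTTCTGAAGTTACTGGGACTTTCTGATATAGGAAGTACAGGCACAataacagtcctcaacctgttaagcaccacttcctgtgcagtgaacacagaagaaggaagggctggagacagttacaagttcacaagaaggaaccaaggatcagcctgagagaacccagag
Ms4a6c promoter, chr19:11469118-11469417, plus strand: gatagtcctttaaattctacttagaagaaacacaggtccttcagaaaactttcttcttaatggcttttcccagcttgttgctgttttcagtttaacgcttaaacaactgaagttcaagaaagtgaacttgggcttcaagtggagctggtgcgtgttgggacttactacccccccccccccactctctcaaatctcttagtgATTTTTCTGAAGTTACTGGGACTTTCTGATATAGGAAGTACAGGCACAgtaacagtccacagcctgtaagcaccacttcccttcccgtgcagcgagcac
Within the windows, 162 of 182 aligned bases were identical between Ms4a4b and Ms4a4c (89.0%), and 182 of 213 between Ms4a6b and Ms4a6c (85.4%). The shared run of 48 bases began 118 bases before the start site of Ms4a6b but 49 bases before that of Ms4a6c. Exact matches on either strand were sought to 5 motifs: the octamer ATGCAAAT, the PU.1-type GAGGAAGT, the GATA-type AGATAA, the RUNX-type TGTGGT and the E-box CAGCTG. Of the 7 promoters, only that of Ms4a4c held any, an octamer and a RUNX-type match, both on the minus strand. These letters occur in 1.74% and 16.8% of 32851 mouse promoters of the same length. A match is a description of the letters and not of a bound site.

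Which member led the family differed between libraries. Per kilobase of exon, Ms4a1 was the highest of the 8 in 8 libraries, Ms4a6b in 5 and Ms4a6c in 2. The 5 led by Ms4a6b were all from Eμ-TCL1;p53R172H/+ mice, and the 2 led by Ms4a6c were Eμ-TCL1 replicate 2 in DMSO and replicate 1 in ibrutinib. Ms4a1 made up between 0.247% and 89.8% of the summed level per kilobase. With the length of the longest coding transcript in place of all exons, Ms4a3 took the lead from Ms4a6c in Eμ-TCL1 ibrutinib replicate 1, and Ms4a1 and Ms4a6b led in 8 and 5 libraries.

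**Figure D1:**
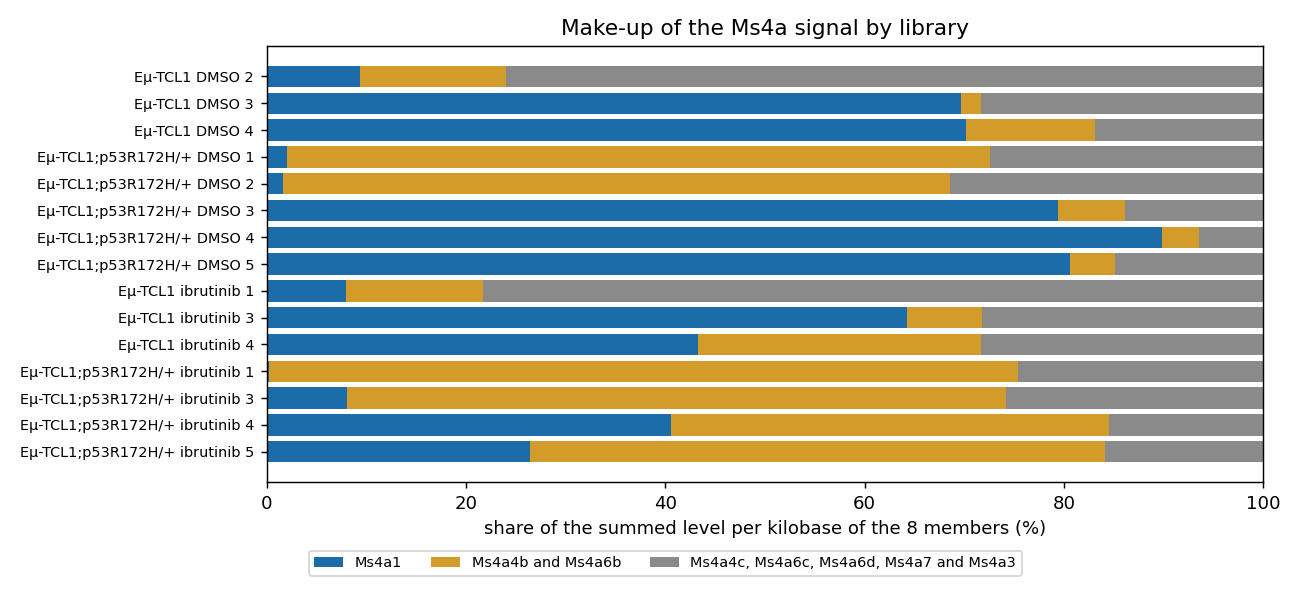
Share of the summed level per kilobase of exon (%) taken by Ms4a1, by the T-cell members and by the other 5 members, in each of the 15 libraries; a share within a library does not depend on the scaling of its table. Ms4a1 took 89.8% in Eμ-TCL1;p53R172H/+ DMSO replicate 4 and 0.247% in Eμ-TCL1;p53R172H/+ ibrutinib replicate 1.

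The B-cell member, Ms4a1, was at 142.9, 2377.6 and 1675.6 in Eμ-TCL1 DMSO replicates 2, 3 and 4. In Eμ-TCL1;p53R172H/+ DMSO replicates 1 to 5 it was at 79.9, 74.1, 1051.9, 2056.9 and 759.9. The groups overlapped, and the 3 lowest of the 8 libraries were those with few Cd79a transcripts. In ibrutinib Ms4a1 was at 86.1, 702.5 and 567.4 in Eμ-TCL1 replicates 1, 3 and 4, and at 7.8, 99.4, 330.1 and 180.9 in Eμ-TCL1;p53R172H/+ replicates 1, 3, 4 and 5. The genotypes overlapped here as well. The log2 change of Ms4a1 in Eμ-TCL1;p53R172H/+ relative to Eμ-TCL1 was -1.06 (standard error 1.37, limma adjusted p = 0.794) in DMSO and -1.93 (standard error 1.31, limma adjusted p = 0.565) in ibrutinib. Neither passed. All 12 B-cell marker genes compared, Ms4a1 not among them, were also below 0 in both comparisons, with medians of -1.13 and -1.54 against 0.04 and -0.05 over all genes.

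**Figure D2:**
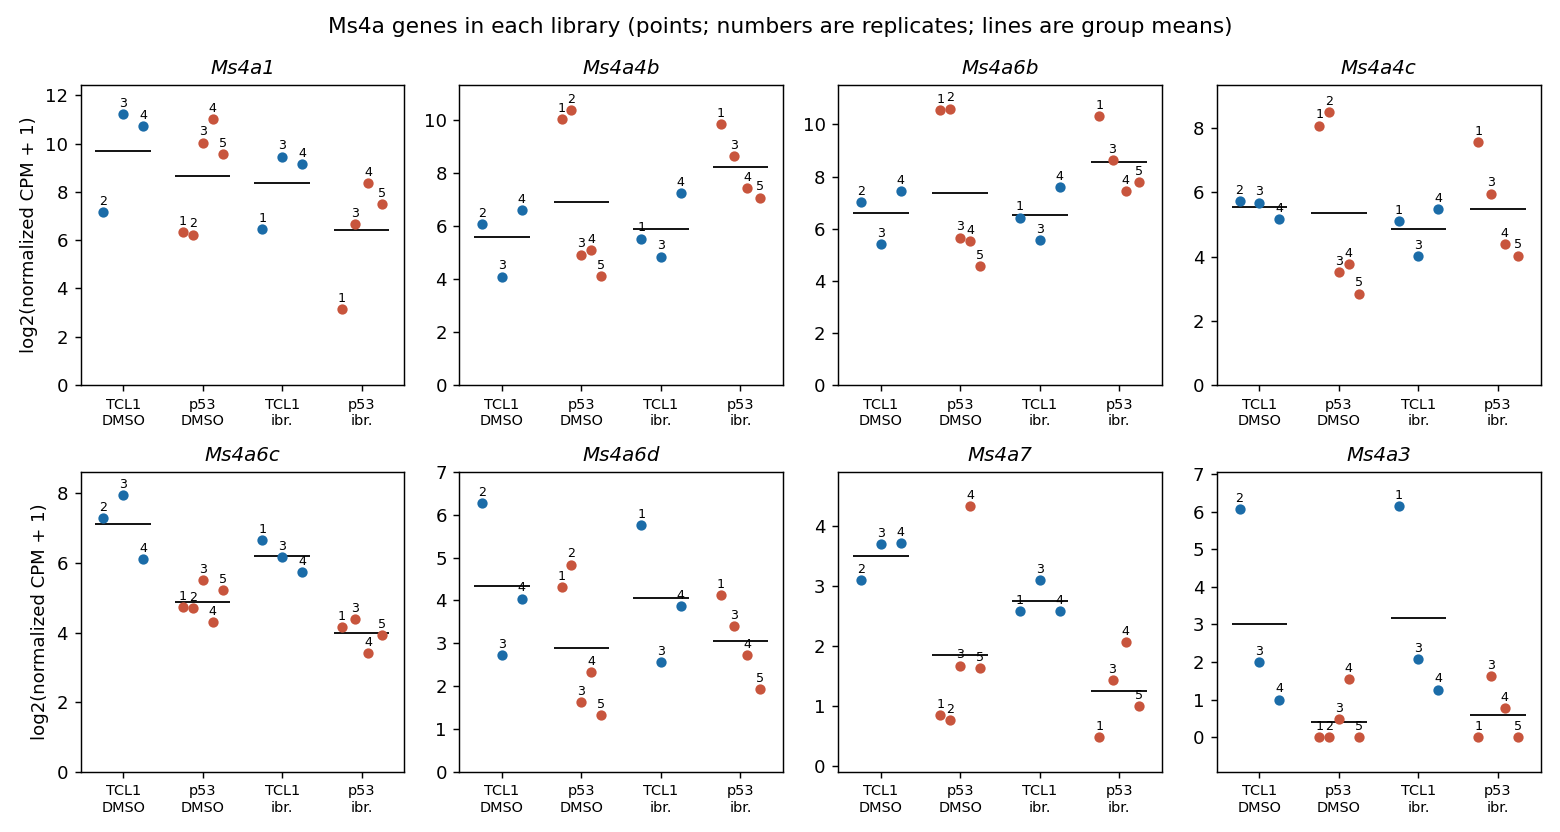
Level of each Ms4a member in every library, as log2(normalized CPM + 1), with Eμ-TCL1 (TCL1) in blue and Eμ-TCL1;p53R172H/+ (p53) in red, replicate numbers beside the points and a line at each group mean; the DMSO and ibrutinib tables were scaled separately. Ms4a1 and Ms4a4b are high in different libraries, and the genotypes do not overlap in Ms4a6c.

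To ask whether Ms4a1 moved apart from the B-cell content of a library, its log2 level was taken relative to the mean log2 level of Cd79a, Cd79b and Cd22, which encode the signaling chains of the B-cell receptor and an inhibitory co-receptor. This ratio is formed within a library, so the scaling of its table enters only through the 1 added to each value before the log2, which weighs most on low values, and the treatments were compared on it. Adding 0.1 in place of 1 moved the treatment difference over both genotypes, given below, from -1.13 to -1.14. In DMSO it was 1.22, 2.16 and 1.76 in Eμ-TCL1 replicates 2, 3 and 4, and 1.24, 1.06, 1.57, 2.29 and 0.84 in Eμ-TCL1;p53R172H/+ replicates 1 to 5. In ibrutinib it was 0.54, 0.81 and 0.75 in Eμ-TCL1 replicates 1, 3 and 4, and -0.52, 0.45, 0.66 and 0.0083 in Eμ-TCL1;p53R172H/+ replicates 1, 3, 4 and 5. Every ibrutinib library of a genotype was below every DMSO library of that genotype, the libraries poor in Cd79a included.

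In Eμ-TCL1 the ratio was 1.71 ± 0.47 (SD, n = 3) in DMSO and 0.70 ± 0.14 (SD, n = 3) in ibrutinib, a difference of -1.01 (standard error 0.28). The two-sided exact permutation p was 0.1, the smallest that 3 libraries against 3 allow. In Eμ-TCL1;p53R172H/+ the ratio was 1.40 ± 0.56 (SD, n = 5) in DMSO and 0.15 ± 0.52 (SD, n = 4) in ibrutinib, a difference of -1.25 (standard error 0.36). The exact permutation p was 0.0159, the smallest possible for 5 against 4, and 0.190 after adjustment over the 12 ratio comparisons made. Ms4a1 relative to the 3 B-cell genes was thus 2.01-fold and 2.38-fold lower in the ibrutinib cultures, without passing the adjusted threshold in either genotype alone.

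Both genotypes were then tested together, a test chosen after these values had been seen. With the treatment permuted within each genotype, the mean difference was -1.13 over 2520 regroupings (exact permutation p = 0.000794, the smallest possible, and 0.00238 adjusted over the 3 ratios of this kind). Without the 5 libraries that stood apart the difference was -1.19 (exact permutation p = 0.0167, again the smallest possible). The ratio was also lower in ibrutinib in 6 of the 6 cases in which a replicate number of a genotype occurs in both tables, by 0.83 to 1.76. Whether equal numbers mean the same mouse is not stated, and Eμ-TCL1;p53R172H/+ replicate 3 had Xist at 1491.3 in DMSO but at 1.0 in ibrutinib. The permutation over both genotypes took all libraries as independent, which cultures of the same mouse would not be, and its p rests on that. Between genotypes the ratio differed by -0.31 (standard error 0.37, exact permutation p = 0.429) in DMSO and -0.55 (standard error 0.27, exact permutation p = 0.114) in ibrutinib, within the spread of the libraries.

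**Figure D3:**
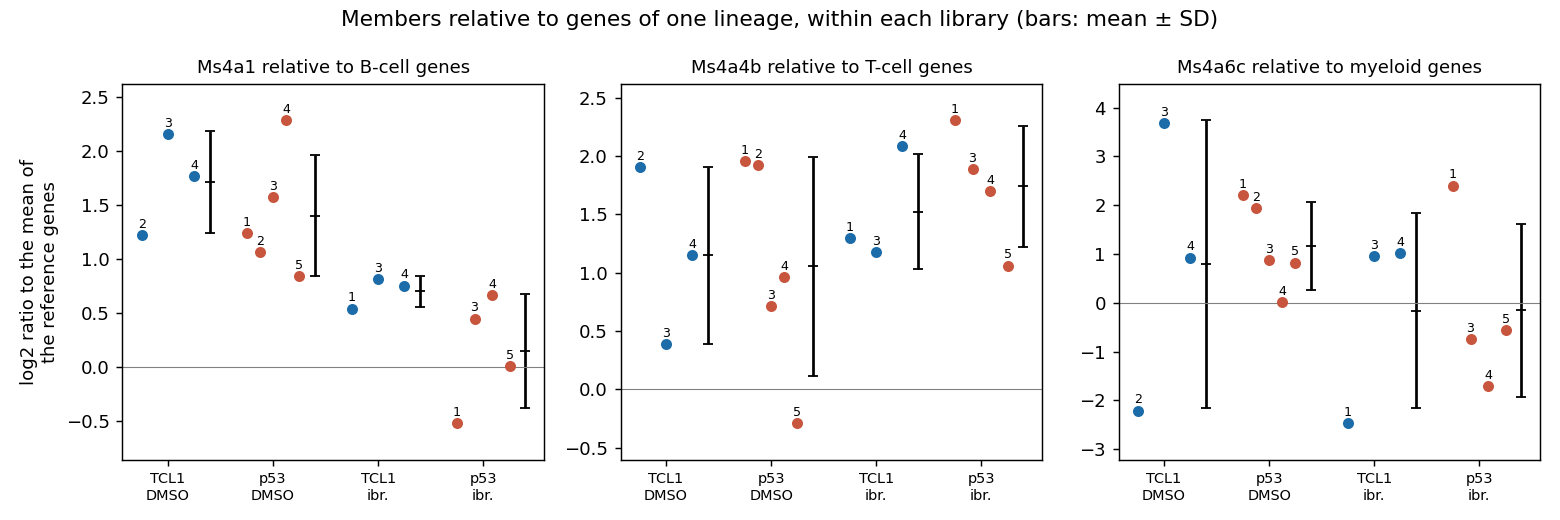
Log2 level of Ms4a1, Ms4a4b and Ms4a6c relative to the mean log2 level of the 3 B-cell, 4 T-cell or 4 myeloid reference genes, in each library, with TCL1 for Eμ-TCL1, p53 for Eμ-TCL1;p53R172H/+, ibr. for ibrutinib, replicate numbers beside the points and mean ± SD at the right of each group. For Ms4a1 the ibrutinib libraries of each genotype lie below its DMSO libraries, which is not the case for Ms4a4b or Ms4a6c.

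Ms4a1 was not alone in this among genes for B-cell surface proteins. Of 15 others on the same ratio, 13 were lower in the Eμ-TCL1 cultures and 12 in those of Eμ-TCL1;p53R172H/+ given ibrutinib, with medians of -0.35 and -0.62. Cd72, an inhibitory co-receptor, differed the most at -1.89 and -2.16, but its DMSO and ibrutinib libraries overlapped in both genotypes. Tnfrsf13c, which encodes the BAFF receptor, was at -0.86 and -1.24 and did not overlap in either genotype. Cd79a was at the other end at 0.66 and 0.68. Of the 15, only Tnfrsf13c had lower ibrutinib values without overlap in both genotypes as Ms4a1 did. The share of all genes with this pattern on the ratio was not determined, so how unusual it is cannot be said. The 3 reference genes are among the 15, and each was taken relative to the other 2. The changes of Cd79a, Cd79b and Cd22 therefore cancel out within a genotype and are not separate observations.

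The T-cell members moved with the T-cell content of the libraries. Ms4a4b was at 65.5, 16.0 and 95.3 in Eμ-TCL1 DMSO replicates 2, 3 and 4, and at 1043.9, 1314.3, 29.1, 33.1 and 16.2 in Eμ-TCL1;p53R172H/+ DMSO replicates 1 to 5. Ms4a6b was at 127.5, 41.1 and 173.7 in the same Eμ-TCL1 libraries and at 1503.0, 1559.1, 49.5, 45.0 and 22.6 in the Eμ-TCL1;p53R172H/+ libraries. In DMSO both genes were thus high in the pair of Eμ-TCL1;p53R172H/+ libraries rich in Cd3g, and the other 3 lay below the level of Eμ-TCL1 replicates 2 and 4.

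In ibrutinib Ms4a4b was at 44.8, 27.5 and 149.1 in Eμ-TCL1 replicates 1, 3 and 4 and at 898.4, 391.2, 170.3 and 132.3 in Eμ-TCL1;p53R172H/+ replicates 1, 3, 4 and 5. Ms4a6b was at 84.8, 45.8 and 194.0 in Eμ-TCL1 and at 1263.6, 394.0, 173.1 and 218.8 in Eμ-TCL1;p53R172H/+. In each gene 1 library crossed, Ms4a4b in Eμ-TCL1;p53R172H/+ replicate 5 and Ms4a6b in Eμ-TCL1;p53R172H/+ replicate 4, which were lower than Eμ-TCL1 replicate 4. The log2 change was 2.37 (standard error 0.80, limma adjusted p = 0.341) for Ms4a4b and 2.01 (standard error 0.76, limma adjusted p = 0.371) for Ms4a6b. In DMSO the changes were 1.32 (standard error 1.60, limma adjusted p = 0.778) and 0.76 (standard error 1.54, limma adjusted p = 0.871), and without the libraries poor in B-cell genes or rich in myeloid genes they turned to -0.64 and -1.17. None passed.

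All 15 T-cell marker genes were found, and their summed level in ibrutinib was 1086.8 to 3233.2 over the Eμ-TCL1;p53R172H/+ libraries, against 289.7 to 891.9 over the Eμ-TCL1 libraries, with no overlap and none of the markers at 0. In DMSO the respective sums were 376.5 to 5712.7 and 319.2 to 888.2, which overlapped. In the Cd3g-rich Eμ-TCL1;p53R172H/+ DMSO replicates 1 and 2, Cd8a was at 266.2 and 298.1, but Cd4 was not raised, at 2.0 and 4.4. The 6 natural killer cell markers summed to 692.2 and 789.1 there, with 1 of them at 0 in each, against at most 60.3 in the other DMSO libraries. Most of these sums came from Eomes, at 297.3 and 377.5, and Klrd1, at 221.3 and 250.2. The markers Ncr1 and Klrb1c had means of only 0.42 and 1.38 over the Eμ-TCL1;p53R172H/+ DMSO libraries. Whether these libraries held more natural killer cells was not tested. The part of T-cell content in the levels of Ms4a4b and Ms4a6b was not tested beyond the ratio that follows. Relative to Cd3d, Cd3e, Cd3g and Lck, genes of the T-cell receptor complex and its kinase, Ms4a4b differed between genotypes by -0.10 (standard error 0.61, exact permutation p = 1) in DMSO and 0.22 (standard error 0.39, exact permutation p = 0.629) in ibrutinib. Between treatments the ratio was higher in ibrutinib by 0.37 (standard error 0.52, exact permutation p = 0.4) in Eμ-TCL1 and by 0.69 (standard error 0.49, exact permutation p = 0.222) in Eμ-TCL1;p53R172H/+, with overlapping groups. Over both genotypes the mean difference was 0.53 (exact permutation p = 0.141, and 0.212 adjusted over the 3 ratios). The ratio was higher in ibrutinib in 6 of the 6 cases in which a replicate number occurs in both tables, by 0.35 to 1.35, and with the numbers as a block the difference was 0.88 (exact permutation p = 0.0312). Without the 5 libraries that stood apart it was 0.98 (exact permutation p = 0.0167), and 0.92 (exact permutation p = 0.01) where Eμ-TCL1 ibrutinib replicate 1 was kept. These alternatives were chosen after the data were seen.

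Ms4a4b and Ms4a6b followed each other closely, with Pearson r = 0.99 over the 8 DMSO and 0.98 over the 7 ibrutinib libraries on the log2 scale. The value of Ms4a6b was 1.01 to 2.57 times that of Ms4a4b in the 15 libraries, while each gene ranged over more than an order of magnitude. These correlations are a description over libraries that differ in cell make-up. The genes share few sequence windows: 4.19% of the 50-base windows of the Ms4a4b transcript occur in transcripts of other genes, those of Ms4a2 and Ms4a4c, and 5.89% of those of Ms4a6b, in Ms4a6c, Ms4a6d and Gm10212.

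**Figure D4:**
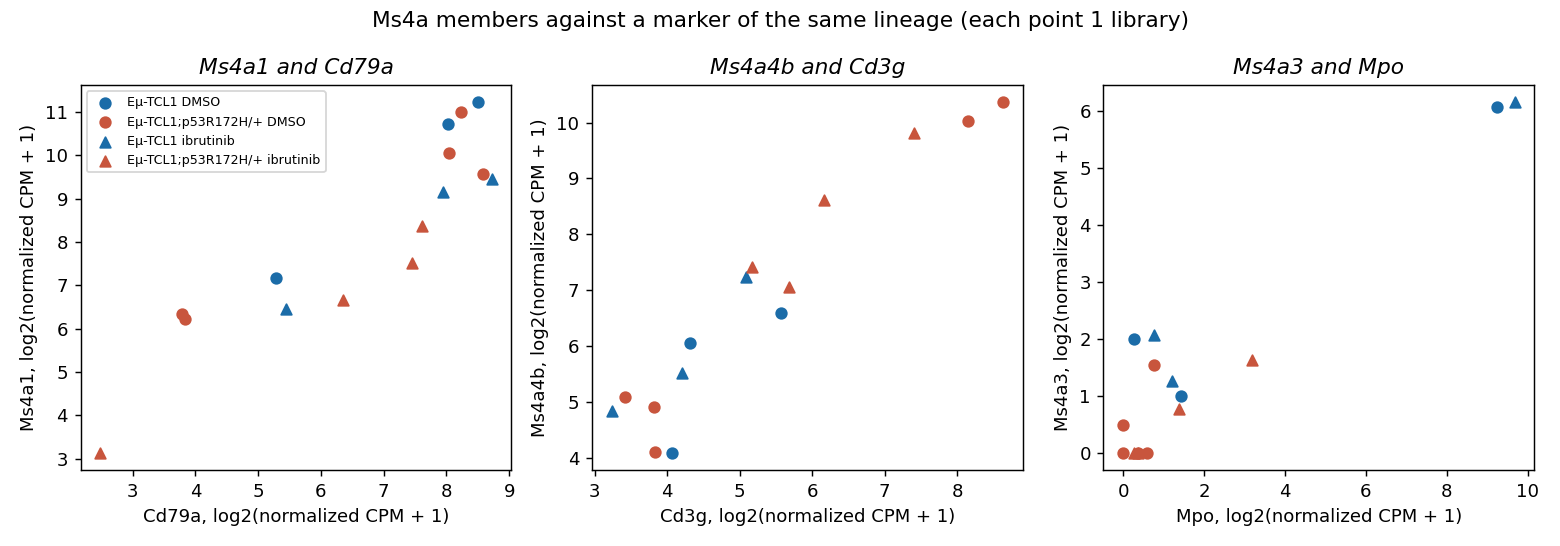
Log2(normalized CPM + 1) of Ms4a1, Ms4a4b and Ms4a3 against that of Cd79a, Cd3g and Mpo in each of the 15 libraries (circles DMSO, triangles ibrutinib, blue Eμ-TCL1, red Eμ-TCL1;p53R172H/+), with tables scaled separately. Points rise along the diagonal for the first 2 pairs, and in the third Eμ-TCL1 DMSO replicate 2 and ibrutinib replicate 1 stand alone at Mpo 607.0 and 816.9.

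Ms4a4c is grouped with the monocyte genes, but in these libraries it was highest where T-cell genes were high. It was at 268.1, 359.7, 10.5, 12.7 and 6.2 in Eμ-TCL1;p53R172H/+ DMSO replicates 1 to 5 and at 52.3, 50.2 and 34.9 in Eμ-TCL1 DMSO replicates 2, 3 and 4. In ibrutinib it was at 189.4, 61.2, 19.8 and 15.3 in Eμ-TCL1;p53R172H/+ replicates 1, 3, 4 and 5 and at 33.4, 15.2 and 43.8 in Eμ-TCL1 replicates 1, 3 and 4. Its r with Ms4a6b was 0.93 and 0.83 over the DMSO and ibrutinib libraries, and with its promoter and sequence neighbour Ms4a4b 0.89 and 0.79. Of the 50-base windows of the Ms4a4c transcript, 8.48% also occur in transcripts of Ms4a4b and Ms4a4d. The part of shared sequence in the level of Ms4a4c was not tested. The libraries highest in Ms4a4c also had a summed level of the 16 monocyte and macrophage markers of 1032.9 and 1453.9 in DMSO, against 178.8 to 282.3 in the other 3 Eμ-TCL1;p53R172H/+ libraries, with 1 and 2 of the markers at 0. Most of these sums came from Ly6c2, at 606.6 and 944.2, and Ccr2, at 388.1 and 473.0, genes that T cells can express as well. Lyz2 was at 11.4 and 13.3, Csf1r at 2.4 and 2.6, Cd68 at 11.2 and 14.5 and Itgam at 1.2 and 1.6 there, the lowest values of the DMSO table. In Eμ-TCL1 DMSO replicate 2, where Lyz2 was at 7931.4, Ms4a4c was at 52.3. The log2 change between genotypes was -0.18 (standard error 1.37, limma adjusted p = 0.972) in DMSO and 0.62 (standard error 0.86, limma adjusted p = 0.762) in ibrutinib.

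Ms4a6c separated the genotypes in both tables, with every Eμ-TCL1;p53R172H/+ library below every Eμ-TCL1 library of the same table. In DMSO it was at 156.4, 245.6 and 68.0 in Eμ-TCL1 replicates 2, 3 and 4 and at 25.7, 24.9, 44.8, 18.6 and 36.5 in Eμ-TCL1;p53R172H/+ replicates 1 to 5. In ibrutinib it was at 99.9, 71.5 and 52.1 in Eμ-TCL1 replicates 1, 3 and 4 and at 16.9, 20.1, 9.6 and 14.3 in Eμ-TCL1;p53R172H/+ replicates 1, 3, 4 and 5. The log2 change was -2.22 (standard error 0.44, unadjusted p = 0.000798, limma adjusted p = 0.245) in DMSO and -2.21 (standard error 0.31, unadjusted p = 0.000140, limma adjusted p = 0.162) in ibrutinib. Neither passed the adjusted threshold, although the groups did not overlap. No overlap in this direction was found for 2.93% of all genes in DMSO and 5.97% in ibrutinib, and for 1.34% in both tables at once. The libraries of the tables come from cultures of partly the same numbers and are not independent.

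Without the libraries poor in B-cell genes or rich in myeloid genes the log2 change of Ms4a6c was -2.01 (limma adjusted p = 0.261) in DMSO, and without the myeloid-rich Eμ-TCL1 replicate 1 as well as Eμ-TCL1;p53R172H/+ replicate 1 it was -2.04 (limma adjusted p = 0.102) in ibrutinib. Among libraries with high Xist, Ms4a6c was at 44.8 and 36.5 in Eμ-TCL1;p53R172H/+ DMSO replicates 3 and 5 and at 14.3 in ibrutinib replicate 5, still below all Eμ-TCL1 values of the same table. The highest value, 245.6, was in Eμ-TCL1 DMSO replicate 3, where Lyz2 was at 28.2, while in Eμ-TCL1 DMSO replicate 2 Lyz2 was at 7931.4 and Ms4a6c at 156.4. In Eμ-TCL1 ibrutinib replicates 1, 3 and 4 Ms4a6c had the same order as Lyz2 and Csf1r, with Csf1r at 258.8, 20.4 and 7.8. In Eμ-TCL1;p53R172H/+ DMSO the libraries highest in Ms4a6c, replicates 3 and 5, were also highest in Lyz2, at 116.1 and 66.3, whereas in ibrutinib Lyz2 was at 5.8, 188.1, 211.5 and 224.1 in replicates 1, 3, 4 and 5, in another order than Ms4a6c. The part of myeloid content in the level of Ms4a6c was not tested beyond the ratio that follows.

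Relative to Lyz2, Csf1r, Cd68 and Itgam, genes of monocytes and macrophages, Ms4a6c ranged from -2.47 to 3.68 on the log2 scale. The ratio differed between genotypes by 0.37 (standard error 1.75, exact permutation p = 0.786) in DMSO and 0.01 (standard error 1.46, exact permutation p = 1) in ibrutinib. With each library left out this difference ranged from -1.13 to 1.81 in DMSO and from -1.15 to 0.60 in ibrutinib. It was negative in both without the libraries that stood apart, and with the B-cell reference genes. Its direction thus depended on the libraries and reference genes used, and no conclusion on the genotypes is drawn from it. Between treatments the ratio was lower in ibrutinib by 0.96 (standard error 2.06, exact permutation p = 0.7) in Eμ-TCL1 and by 1.33 (standard error 0.98, exact permutation p = 0.175) in Eμ-TCL1;p53R172H/+. Over both genotypes the mean difference was -1.14 (exact permutation p = 0.299), and without the 5 libraries that stood apart -1.44 (exact permutation p = 0.05, which does not pass). Where Eμ-TCL1 ibrutinib replicate 1, at a ratio of -2.47, was kept, it was -2.02 (exact permutation p = 0.03). Ms4a6c shares 11.3% of its 50-base transcript windows with other genes, Ms4a6b among them. The log2 changes of both genes in ibrutinib, -2.21 and 2.01, were of opposite sign.

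**Figure D5:**
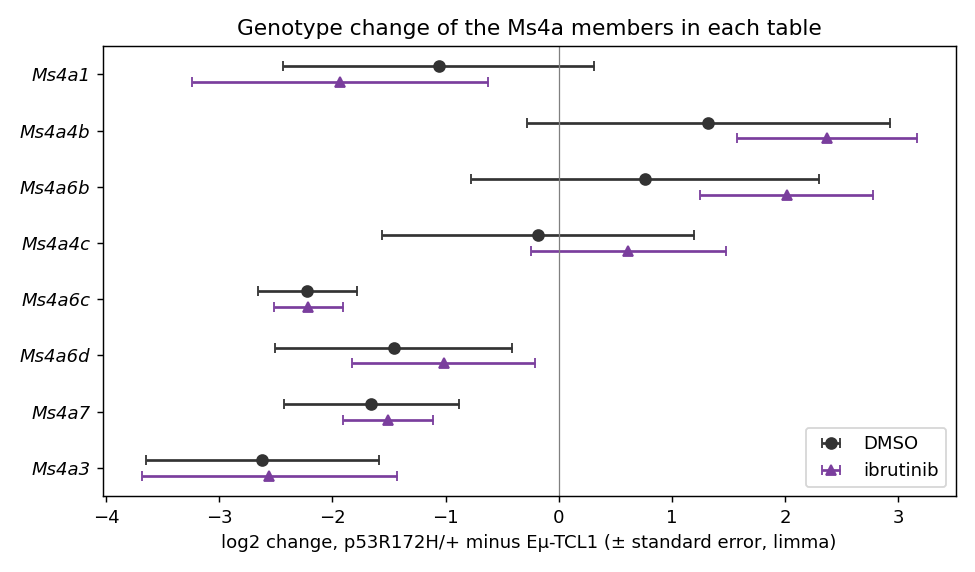
Log2 change of each Ms4a member in Eμ-TCL1;p53R172H/+ relative to Eμ-TCL1 with its standard error (limma), for DMSO (circles) and ibrutinib (triangles). Ms4a6c is at -2.22 and -2.21, with the smallest error of the 8 in each table, and no member passed an adjusted p of 0.05.

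The remaining myeloid members were expressed at lower levels. In DMSO Ms4a6d was at 75.9, 5.6 and 15.5 in Eμ-TCL1 replicates 2, 3 and 4 and at 18.8, 27.6, 2.1, 4.0 and 1.5 in Eμ-TCL1;p53R172H/+ replicates 1 to 5. In ibrutinib it was at 53.3, 4.9 and 13.6 in Eμ-TCL1 replicates 1, 3 and 4 and at 16.5, 9.6, 5.6 and 2.8 in Eμ-TCL1;p53R172H/+ replicates 1, 3, 4 and 5. It was highest in the myeloid-rich Eμ-TCL1 libraries and next highest in the T-cell-rich Eμ-TCL1;p53R172H/+ libraries. The log2 changes between genotypes were -1.46 (standard error 1.04, limma adjusted p = 0.656) in DMSO and -1.02 (standard error 0.81, limma adjusted p = 0.605) in ibrutinib.

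Ms4a7 was at 7.6, 12 and 12.1 in Eμ-TCL1 DMSO replicates 2, 3 and 4 and at 0.8, 0.7, 2.2, 19.1 and 2.1 in Eμ-TCL1;p53R172H/+ DMSO replicates 1 to 5. In ibrutinib it was at 5.0, 7.6 and 5.0 in Eμ-TCL1 replicates 1, 3 and 4 and at 0.4, 1.7, 3.2 and 1.0 in Eμ-TCL1;p53R172H/+ replicates 1, 3, 4 and 5. These ibrutinib groups did not overlap, as was so in this direction for 5.97% of all genes. The log2 change was -1.65 (standard error 0.77, limma adjusted p = 0.625) in DMSO and -1.51 (standard error 0.40, limma adjusted p = 0.266) in ibrutinib. A single library, Eμ-TCL1;p53R172H/+ replicate 4 in DMSO, carried the overlap there. The level of Ms4a7 did not go with that of Lyz2 in the myeloid-rich libraries, and over the DMSO and ibrutinib libraries its r with Ms4a1 was 0.73 and 0.77.

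Ms4a3 was close to absent outside a pair of libraries. It was at 66.0 in Eμ-TCL1 DMSO replicate 2 and at 69.7 in Eμ-TCL1 ibrutinib replicate 1, the libraries with Mpo at 607.0 and 816.9, and between 0 and 3.2 in the other 13. The log2 change was -2.62 (standard error 1.03, limma adjusted p = 0.580) in DMSO and -2.56 (standard error 1.13, limma adjusted p = 0.426) in ibrutinib, and without the libraries that stood apart -0.83 and -0.87. Ms4a2, the β chain of the high-affinity IgE receptor of mast cells and basophils, was highest in the same pair, at 10.6 and 7.5, and at most 2.7 elsewhere. Ms4a4d was at 1.2 or less in all libraries and Ms4a8a at 0.6 or less in DMSO.

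Across the family, 0 of the 8 members passed an adjusted p of 0.05 in DMSO (limma), where 0.0121% of all genes did, and 2 had an unadjusted p under 0.05, Ms4a6c and Ms4a3, against 8.17% of all genes. In ibrutinib 0 of 8 passed, as did 0% of all genes, and 4 had an unadjusted p under 0.05, Ms4a6c, Ms4a7, Ms4a4b and Ms4a6b, against 12% of all genes. Groups without overlap were seen for Ms4a6c alone in DMSO and for Ms4a6c and Ms4a7 in ibrutinib, lower in Eμ-TCL1;p53R172H/+ each time. Over all genes this was so in the same direction for 2.93% in DMSO and 5.97% in ibrutinib. The interaction of genotype and treatment passed for 0 of 8, with every adjusted p at 1 (limma) and 0 members at an unadjusted p under 0.05, against 0.523% of all genes. The changes of the members thus did not differ detectably between DMSO and ibrutinib at this number of libraries.

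To see which genes had a pattern most like each member, log2 levels were correlated with those of 10112 genes in each table and the smaller r of both tables was kept. The nearest gene was Tcf4 for Ms4a1 (r = 0.99), followed by A530032D15Rik and C130026I21Rik, and 7 of its 50 nearest genes were on the list of B-cell markers. For Ms4a4b the nearest were Sh2d1a, which encodes the adapter SAP, Abcb1a and Sidt1, with 5 T-cell and 2 natural killer cell markers among its 50. Ms4a6b was nearest to BC021614, Stat4 and Sh2d1a, with 1 T-cell marker among 50, and Ms4a3 to Zmpste24, Atp8a1 and Naaa, with 3 granulocyte markers and 1 of mast cells and basophils. The 50 nearest genes of the other 4 members held none of the markers. They were led by Bbs9, Cog3 and Asap2 for Ms4a4c, by Ggh, Rcsd1 and Adam17 for Ms4a6c, by Gm8822, Slk and Sptlc2 for Ms4a6d and by Asph, Scpep1 and Cdc42bpb for Ms4a7. These r values run over 8 and 7 libraries that share their differences in cell make-up. The nearest genes depended on the libraries and the measure. Without 4 of the libraries that stood apart, Eμ-TCL1 ibrutinib replicate 1 being kept, 5 to 29 of the 50 were shared for each member, 10 for Ms4a1, and Itgam became the nearest gene of Ms4a6d (r = 0.98). With Spearman's rho 4 to 29 were shared.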

How the data were processed

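Libraries were assigned to genotype, treatment and replicate from their labels. Per the study's methods and processing notes, the authors aligned reads with TopHat2 2.0.12, used SAMtools 0.1.19, counted reads per gene of GENCODE M2 (GRCm38) with HTSeq, filtered low genes and normalized with edgeR. Strandedness is not given in the sources used here, and antisense genes annotated over Ms4a1, Ms4a6b and Ms4a6c are not listed in the tables. The deposited signal values are normalized CPM on an effective library size, made by the authors separately for each treatment and rounded to 0.1. Whole reads could not be recovered, so no test on read counts was run, and without the depth there are no counting intervals.

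Genotypes were compared within each table with limma 3.58.1 (R 4.3.3, trend) on log2(value + 1) over all listed genes, with p-values adjusted by Benjamini-Hochberg at 0.05. This scale understates changes of low genes. The interaction was fitted over 15869 genes in both tables. Exact two-sided permutation tests (scipy 1.17.1) served for the within-library ratios. A further gene intended for the B-cell reference and lists is not reported here, and it was left out of both after the data had been seen. The fits were tested on simulated data. Where nothing states that libraries of a group are separate mice, p-values measure only the spread between these libraries. The members and gene lists were chosen with earlier results of these data known. Genes named are the members, other Ms4a genes, the reference genes of the ratios, the extremes of the lists and the 3 genes most like each member, among genes with a mean of at least 5 in each table. Gene positions, exon lengths and transcripts were from GENCODE M21 on GRCm38. Promoter alignments used Biopython 1.88 and figures matplotlib 3.10.9. Alternatives were pseudocounts of 0.1 and 5, a minimum mean of 5, sample quality weights, quantile normalization, each sample left out, a replicate block, other reference genes for the ratios, and leaving out the libraries that stood apart. The test over both genotypes and some of the other alternatives were added after seeing the data.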

Additional observations from a re-analysis of the deposited data

Results flagged for a closer look

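Within the groups of 4 or 5 libraries, 22 combinations of gene and group were examined for a library far from the others, which chance would flag in about 1 of 20. In Eμ-TCL1;p53R172H/+ DMSO replicate 4, Ms4a7 was at 19.1, with the next library of the group at 2.2. In the same library Ms4a3 was at 1.9, with the next at 0.4. That library also had the highest Ms4a1 of its group, at 2056.9.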

How the results depend on the processing

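The number of members passing an adjusted p of 0.05 stayed at 0 in all 3 fits under every alternative. The count over all genes was 2 in DMSO and moved to 6 (pseudocount 5), 803 (sample quality weights), 20 (replicate block), 12 (without the libraries poor in B-cell genes or rich in myeloid genes) and 0 to 61 with each sample left out, 61 being without Eμ-TCL1 replicate 2. In ibrutinib it was 0, 28 with quality weights and 0 to 24 with each sample left out, 24 being without Eμ-TCL1 replicate 1. Of 239 values of the members' changes under the alternatives, 228 kept their direction and side of the threshold and 11 reversed. In DMSO Ms4a4b reversed to -0.59 (quality weights) and -0.64 (without the libraries that stood apart), and Ms4a6b to -0.99 and -1.17. With each sample left out, Ms4a6b ranged from -0.042 to 1.47 and Ms4a4c from -0.97 to 0.44 in DMSO, and Ms4a4c from -0.081 to 1.10 in ibrutinib, the lowest being without Eμ-TCL1;p53R172H/+ replicate 1. The cause was not tested. Quantile normalization moved the median change of all genes from 0.04 to 0.10 in DMSO and from -0.05 to 0.07 in ibrutinib.

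For Ms4a1 relative to B-cell genes in Eμ-TCL1;p53R172H/+, the treatment difference was -1.33 with a replicate block (exact permutation p = 0.125) and -1.19 without the libraries that stood apart (exact permutation p = 0.1), each the smallest p that fewer libraries allow, and -1.42 to -1.03 with each library left out. For Ms4a4b relative to T-cell genes, the genotype difference in DMSO was 0.15 with the median of the reference genes, 0.051 with the replicate block and -0.48 to 0.28 with each library left out. The treatment difference in Eμ-TCL1 was -0.0073 to 0.75 with each left out, the genotype difference in ibrutinib was -0.083 without all 5 libraries that stood apart, and the treatment difference over both genotypes was 0.98 without all 5, 0.92 with Eμ-TCL1 ibrutinib replicate 1 kept, and 0.88 with the replicate block. For Ms4a6c relative to myeloid genes, the genotype difference in DMSO was -1.74 without the libraries that stood apart, -1.47 with the B-cell reference genes and -1.13 to 1.81 with each left out. The value in ibrutinib was -0.85 without Eμ-TCL1;p53R172H/+ replicate 1, -2.0 also without Eμ-TCL1 replicate 1, -0.83 with the B-cell reference genes and -1.15 to 0.60 with each left out. Its treatment difference was -2.47 to 0.48 in Eμ-TCL1 and -2.18 to -0.81 in Eμ-TCL1;p53R172H/+ with each left out, 0.052 in the latter with the B-cell reference genes, and over both genotypes -1.44 without all 5 libraries that stood apart but -2.02 with Eμ-TCL1 ibrutinib replicate 1 kept.

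Same-numbered libraries of the 2 treatments deviated together in 5 of 6 cases (r = 0.75 to 0.84), the exception being Eμ-TCL1;p53R172H/+ replicate 3 (r = -0.11). Among different numbers, r was 0.89 for Eμ-TCL1 DMSO replicate 2 with ibrutinib replicate 1, but -0.81 for DMSO replicate 3 with ibrutinib replicate 1. Same-numbered libraries of the 2 genotypes deviated together little (r = 0.044 to 0.28 in DMSO and -0.19 to -0.041 in ibrutinib), so the main comparisons did not take the numbers to pair genotypes. The replicate block of the genotype fits within a table, an alternative only, did group equal numbers across genotypes. Between treatments the main ratio tests took the libraries as independent, which cultures of the same mouse would not be. The replicate block changed no call of a member's level. Of the ratios, it moved those of Ms4a1 in Eμ-TCL1;p53R172H/+ (exact permutation p = 0.125) and Ms4a4b over both genotypes (exact permutation p = 0.0312) across the threshold. An unknown depth limits the low genes, Ms4a7, Ms4a3 and Ms4a6d.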

Other observations

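None of the lists described here had a gene past an adjusted test. Of 8 costimulatory and inhibitory receptors of T cells, 7 were higher in Eμ-TCL1;p53R172H/+ in ibrutinib and 6 in DMSO, with median log2 changes of 0.64 and 0.53, and 0 passed an adjusted p of 0.05 (limma). Ctla4, an inhibitory receptor of T cells named here after its values were seen, went the other way at -2.24 in DMSO (unadjusted p = 0.0113, limma adjusted p = 0.503) and -1.32 in ibrutinib. Of 15 interferon-stimulated genes, 9 and 8 were higher, with medians of 0.19 and 0.01, and 0 passed. Of 11 transcription factors known to act at the Ms4a1 promoter, all were lower in Eμ-TCL1;p53R172H/+ in ibrutinib with a median of -1.51, and 8 of 11 in DMSO with a median of -0.46. None of the 11 passed an adjusted p of 0.05 (limma). At an unadjusted p under 0.05 were 1 lower and 1 higher factor in DMSO, against 8.17% of all genes, and 2 lower ones in ibrutinib, against 12%. Over all genes the median was -0.05 in ibrutinib and 0.04 in DMSO. B-cell markers were lower in the same comparisons, and their part in these changes was not tested.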
